A study of Mus musculus with 8 samples.

Results

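The machinery that carries a signal from the T cell receptor (TCR) to the nucleus was examined in regulatory T cells (Tregs) of chimeras. The labels describe these Tregs as having or, in the other group, lacking interactions of the TCR with MHC class II. Contact itself was not measured by the arrays. The set was a list of 38 genes chosen by function: the CD3 chains and coreceptor, the kinases, the adaptors, the negative regulators, and the calcium and NFAT genes. A gene was measured if a probe set of the array was annotated to its symbol alone, and 36 of the 38 were, among 19937 genes in all. Each of the 36 had 1 probe set. Lck, the kinase carried by CD4, and Itpr1, a calcium release channel of the endoplasmic reticulum, were not analysed here.

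The cells were CD4+ TCRβ+ CD25+ cells sorted from the peripheral lymph nodes and spleen of bone marrow chimeras. All recipients were CD3ε-/- mice, which form no T cells of their own, and were lethally irradiated before they received marrow of WT donors (WT chimeras) or IIKO donors (IIKO chimeras). The labels give the strain as C57BL/6 and the age as 6 to 8 weeks, and the cells were taken 28 days after reconstitution. The labels describe peripheral Tregs of WT chimeras as having, and those of IIKO chimeras as lacking, interactions of the TCR with MHC class II. Each group had 4 biological replicates, with 1 Affymetrix array each, and the labels do not say how many mice were pooled for one array. The values are log2 expression after RMA, a method that corrects background, brings arrays to a common distribution and summarises the probes of a set. Precision is limited by there being 4 arrays in a group.

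A TCR has no enzyme activity of its own. When it binds a peptide on MHC, tyrosines in the tails of the CD3 chains are phosphorylated by a Src family kinase brought by the coreceptor, and ZAP-70 docks there. ZAP-70 phosphorylates the scaffolds LAT and SLP-76, on which phospholipase C gamma and exchange factors for RAS and RAC assemble. The phospholipase releases calcium from stores, STIM and ORAI proteins let more calcium in, and calcineurin then sends NFAT factors to the nucleus. In Tregs this pathway supports suppressive function after the cells have left the thymus, and phosphatases and inhibitory adaptors hold it in check.

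Of the 36 genes, 0 rose and 0 fell in the IIKO chimeras at a limma p adjusted by Benjamini-Hochberg over all genes under 0.05. Of all genes tested 0.286% passed, or 57, a count that fell to 32 when WT array 1 was left out and also when IIKO array 2 was. It was 33 in the absence of WT array 3, 35 in that of IIKO array 3 and 36 in that of IIKO array 1, and 81 with arrays centred on their medians. The smallest adjusted p among the 36 was 0.181, that of Sos1. Differences, given throughout as IIKO minus WT on the log2 scale, ran from -0.17 to 0.22. Every one of the 36 moderated 95% confidence intervals, taken gene by gene, lay within 0.5 of 0. The lowest bound was -0.35 (Tec) and the highest 0.36 (Sos1), so the largest change that any of these intervals allowed was 1.28-fold in size. With arrays centred on their medians the largest change allowed was 1.33-fold. Of all genes, 94.1% had an interval within 0.5, and of the brighter 9969 genes 92.3% did.

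At an unadjusted limma p under 0.05, 1 member was higher, against 5.27% of all genes tested and 8.95% of the brighter genes. At the same p, 0 members were lower, against 12% of all genes tested and 7.42% of the brighter genes. Separation of the groups, with every IIKO array above or every IIKO array below every WT array, was counted in the same way. It was found upward for 1 member (Sos1), against 2.83% of all genes and 4.95% of the brighter genes. It was found downward for 1 (Cd247), against 7.69% of all genes and 4.49% of the brighter genes. Which members were separate depended on the scaling of the arrays. After a further quantile normalization they were Cd247 and Cd6, and with arrays centred on their medians Lat, Lcp2, Ptprc, Sos1, Vav1 and Zap70. Among the 36, 19 differences were positive and 17 negative, with a median of 0.02. The median over all genes was -0.04 and that over the brighter genes was 0.01. The split of signs moved too: 26 of 36 were positive with arrays centred on their medians, and 16 of 36 after a further quantile normalization. With centring, 9 members were higher at an unadjusted p under 0.05 and still 0 passed the adjusted threshold.

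**Figure D1:**
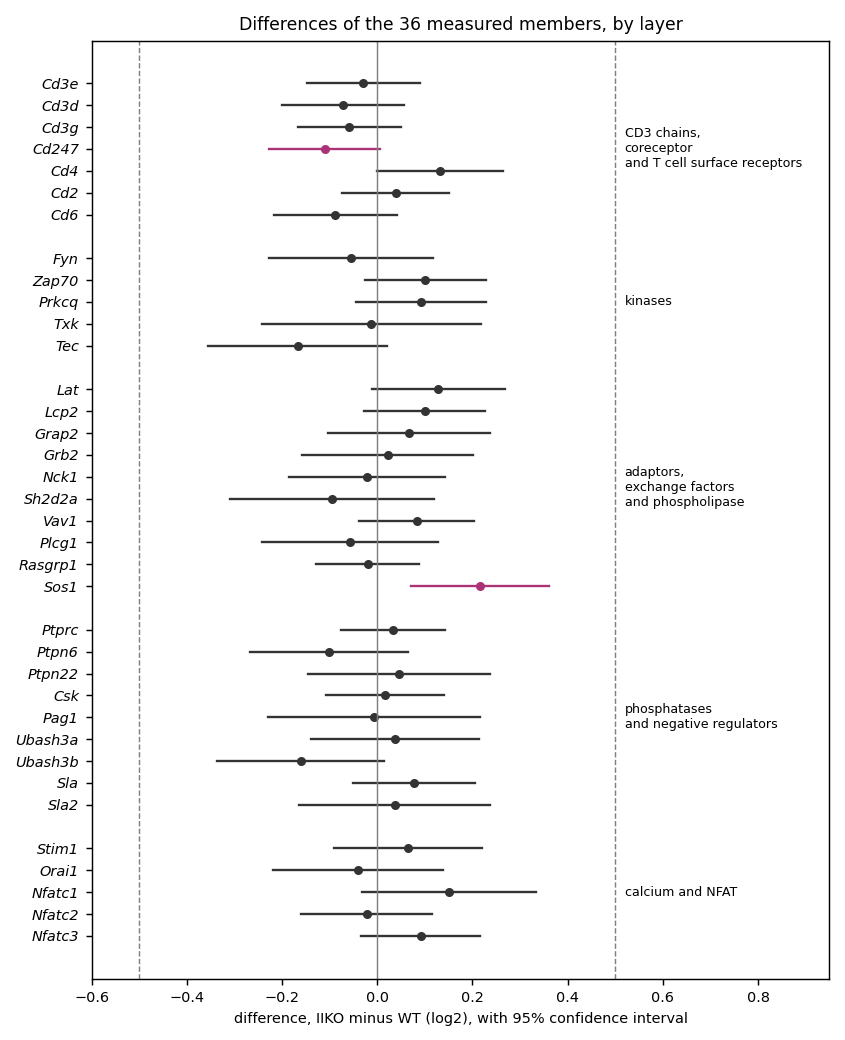
Differences of the 36 measured genes, IIKO minus WT (log2, horizontal axis), as points with moderated 95% confidence intervals, ordered by layer of the pathway. Dashed lines mark 0.5 on either side of 0 and no interval reaches them; Sos1 and Cd247, drawn in colour, are the 2 genes whose groups do not overlap in the deposited values.

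The probe sets of the members were bright, with 36 of 36 at or above the median signal of all genes and 31 above the upper quartile. This matters for the sign of a difference, because dim and bright genes were shifted differently between the groups. Of the brighter genes, 53.6% had a difference above 0, against 37.1% of all genes. In 20 bins of equal size by signal, 31 of the 36 members lay between the 10th and the 90th percentile of the differences of all genes in their bin. Outside that band were Sos1, Lat and Cd4 above it and Ubash3b and Cd247 below it, in the deposited values. Sos1 (0.215, limit 0.214), Lat (0.129, limit 0.127), Cd4 (0.132, limit 0.127) and Cd247 (-0.1102, limit -0.1100) were outside by a narrow margin. Ubash3b was at -0.161 against a limit of -0.128.

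**Figure D2:**
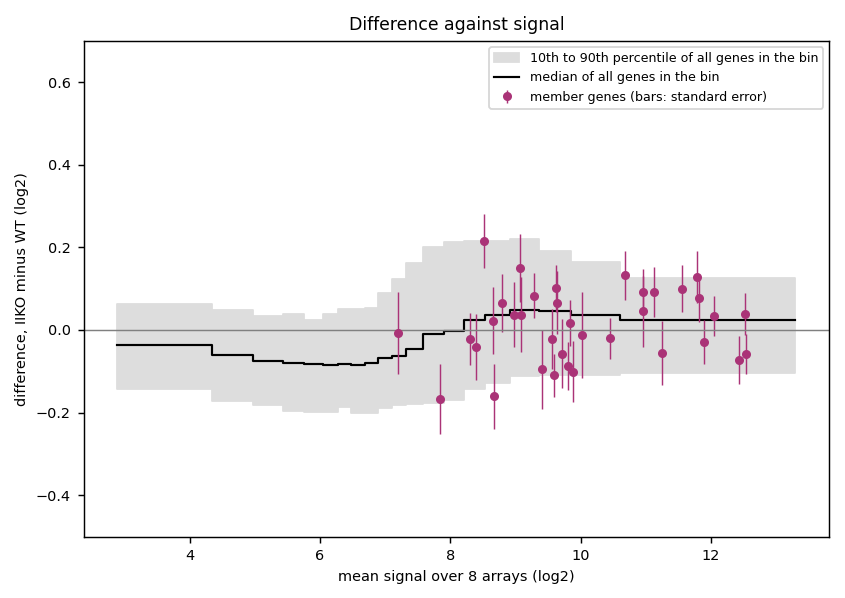
Difference between the groups (log2, vertical axis) against the mean signal over the 8 arrays (log2, horizontal axis). The stepped line and band give the median and the 10th to 90th percentile of all genes in 20 bins, and the points are the 36 members with standard errors; 31 of the 36 lie within the band.

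Of 5 Treg markers, 5 were measured and 0 were below the median signal of all genes. Their mean lay between 11.71 and 11.76 in WT and between 11.73 and 11.86 in IIKO arrays. Foxp3, the factor that defines Tregs, lay between 10.58 and 10.68 in WT and between 10.53 and 10.81 in IIKO chimeras. Il2ra, the gene of CD25 used in the sort, was at most 12.056 in WT and at least 12.057 in IIKO chimeras, so its groups were separate by a narrow margin. Its difference was 0.17 ± 0.06 (SE; limma adjusted p = 0.211). Ctla4 and Ikzf2 were also separate, with differences of 0.12 and 0.05 (adjusted p = 0.272 and 0.634). Among the markers of other cells listed below, Cd1d1 was separate upward (0.21). Siglech, Cd8a and Klrb1c were separate downward (-0.19, -0.11 and -0.10). Of all genes, 2.83% were separate upward and 7.69% downward, and of the brighter genes 4.95% and 4.49%. Among markers whose groups overlapped, differences of both signs occurred. On the NK and CD8 T cell list, Klrd1 differed by 0.40 and Eomes by -0.44. On the myeloid and dendritic cell list, Tyrobp differed by 0.56, Adgre1 by 0.25 and Xcr1 by -0.11. Beside Cd1d1, the thymocyte markers Rag1, Rag2, Dntt and Ptcra differed by -0.04, -0.26, -0.10 and -0.16. Of 8 measured B cell markers, 7 were below the median signal of all genes, and their mean lay between 5.91 and 6.15 in WT and between 5.97 and 6.05 in IIKO arrays. Of 10 myeloid and dendritic cell markers, 9 were below that median. Their mean lay between 6.07 and 6.33 in WT and between 6.06 and 6.51 in IIKO arrays, highest in IIKO array 3. Of 6 NK and CD8 T cell markers, 4 were below it, with means of 6.30 to 6.49 and 6.27 to 6.47. Of 5 thymocyte markers, 4 were below it, with means of 6.03 to 6.15 and 5.83 to 6.21. Of the erythroid markers 2 of 6 were measured and neither was below it, with means of 7.27 to 7.47 and 6.87 to 7.40. Of all these markers, 0 passed the adjusted test. The part of other cells in the members' values was not tested. In bulk samples, fewer cells of a type and less RNA per cell cannot be told apart.

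The CD3 chains form the signalling tails of the receptor. Cd3e, the chain that the recipients lack, was at 11.92, 11.81, 11.97 and 11.91 in the 4 WT arrays and at 11.83, 11.89, 11.89 and 11.89 in the 4 IIKO arrays. The IIKO values lay inside the WT range. Cd3d was at 12.48, 12.35, 12.54 and 12.49 in WT and at 12.39, 12.40, 12.34 and 12.43 in IIKO chimeras. Cd3g was at 12.56, 12.51, 12.58 and 12.61 in WT and at 12.52, 12.48, 12.51 and 12.51 in IIKO chimeras. In both genes the groups overlapped through WT array 2, the lowest WT array of each. When WT array 2 was left out, the groups of Cd3e, Cd3d and Cd3g no longer overlapped, and the unadjusted p of none of them was under 0.05.

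Cd247, which encodes the zeta chain with the largest number of signalling tyrosines, was, in the deposited values, the 1 member lower in every IIKO array. It was at 9.61, 9.61, 9.74 and 9.64 in WT and at 9.54, 9.51, 9.54 and 9.57 in IIKO chimeras. The highest IIKO array lay just below the lowest WT array. The means were 9.65 ± 0.06 and 9.54 ± 0.02 (SD, n = 4 arrays each), a difference of -0.11 ± 0.05 (SE; limma adjusted p = 0.308, 95% confidence interval -0.23 to 0.01). With arrays centred on their medians the groups overlapped and the difference was -0.06 (unadjusted p = 0.283), and after a further quantile normalization it was -0.15 (unadjusted p = 0.0248, adjusted p = 0.34). The differences of Cd3e, Cd3d and Cd3g were -0.03, -0.07 and -0.06 (limma adjusted p = 0.801, 0.524 and 0.548). All 4 CD3 chains thus had a negative difference, which for Cd3e turned to 0.02 with arrays centred on their medians. In the main fit of the deposited values, the intervals of the 4 chains allowed a fall of at most 1.17-fold and a rise of at most 1.06-fold.

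Promoters are shown for Cd3d and Cd3g, which lie head to head with 1355 bases between their annotated starts, and for Cd247 and Sos1, the genes whose groups did not overlap in the deposited values. Each sequence is the 250 bases before the start that RefSeq gives on GRCm38.p6, 5′ to 3′ on the gene's strand. The positions are chr9:44981536-44981785 on the plus strand for Cd3d, chr9:44980432-44980681 on the minus strand for Cd3g, chr1:165788431-165788680 on the plus strand for Cd247 and chr17:80480454-80480703 on the minus strand for Sos1. Capitals mark GGAAA or its reverse complement TTTCC, the core bases that NFAT proteins bind, which also lie inside many sites of other factors.
Cd3d: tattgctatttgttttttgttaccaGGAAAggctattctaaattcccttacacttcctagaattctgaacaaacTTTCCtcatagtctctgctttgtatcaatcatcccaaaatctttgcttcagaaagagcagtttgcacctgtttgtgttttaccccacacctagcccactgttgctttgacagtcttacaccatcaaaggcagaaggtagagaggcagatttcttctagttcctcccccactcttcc
Cd3g: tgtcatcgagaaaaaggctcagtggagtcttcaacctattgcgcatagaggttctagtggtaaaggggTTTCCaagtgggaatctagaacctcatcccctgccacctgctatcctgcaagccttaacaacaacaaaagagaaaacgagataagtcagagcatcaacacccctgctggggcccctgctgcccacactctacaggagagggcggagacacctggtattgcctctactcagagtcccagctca
Cd247: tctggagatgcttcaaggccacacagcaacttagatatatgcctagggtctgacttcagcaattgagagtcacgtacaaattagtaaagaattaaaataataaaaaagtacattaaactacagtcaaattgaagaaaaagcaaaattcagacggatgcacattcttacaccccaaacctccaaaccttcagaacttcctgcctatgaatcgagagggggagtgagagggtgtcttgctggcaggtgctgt
Sos1: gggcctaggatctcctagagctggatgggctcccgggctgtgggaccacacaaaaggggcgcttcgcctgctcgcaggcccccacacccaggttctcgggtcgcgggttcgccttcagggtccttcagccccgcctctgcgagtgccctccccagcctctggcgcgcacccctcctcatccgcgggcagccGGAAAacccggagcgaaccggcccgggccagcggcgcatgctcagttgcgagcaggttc
The core occurred at 2 places before Cd3d, at 1 before Cd3g, at 0 before Cd247 and at 1 before Sos1. RefSeq promoters were matched for 29 of the 36 members, some with several starts. Of these 40 promoters 26 held the core (65.0%), against 55.6% of all 32851 promoters of the same length. A match is a description of the letters and no evidence of binding.

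Cd4, the coreceptor that binds MHC class II and brings the Src family kinase to the receptor, was at 10.72, 10.59, 10.56 and 10.59 in WT and at 10.77, 10.69, 10.84 and 10.69 in IIKO chimeras. WT array 1 lay above the 2 lowest IIKO arrays, and the other 3 WT arrays lay below all of them. The difference was 0.13 ± 0.06 (SE; limma adjusted p = 0.289), and its unadjusted p of 0.0502 passed under 0.05 in some alternatives. Cd2, an adhesion receptor that also signals through the CD3 complex, differed by 0.04 (adjusted p = 0.714). Cd6, a scavenger receptor family protein that binds ALCAM and recruits SLP-76, differed by -0.09 (adjusted p = 0.447). Over this layer, 0 of 7 genes passed, 2 differences were positive and 5 negative, and the median was -0.06.

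**Figure D3:**
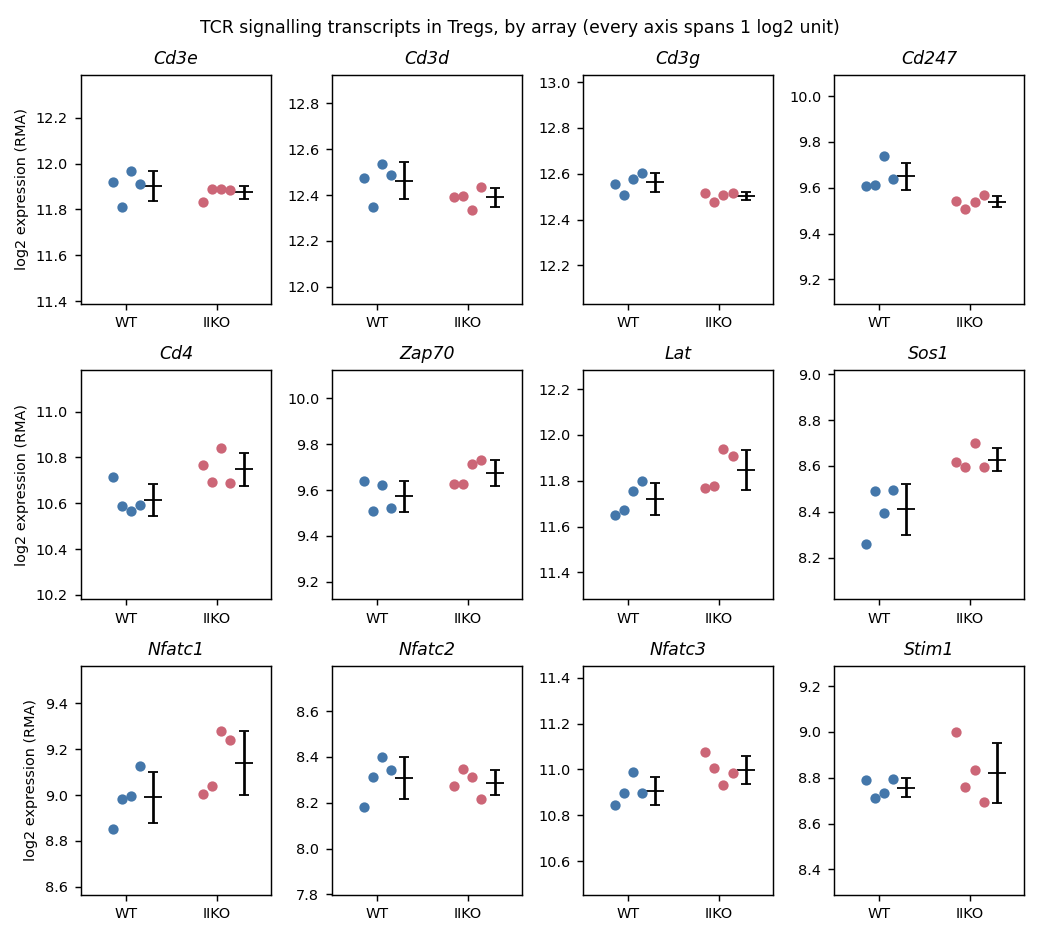
Log2 expression (vertical axes, each spanning 1 log2 unit but placed at a different level) of 12 members in the 4 WT and 4 IIKO arrays. Points are arrays, and the bars beside them give the mean and SD; in these deposited values every IIKO array lies above every WT array for Sos1 and below for Cd247, and in the other 10 genes the groups overlap.

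The kinases turn receptor phosphorylation into downstream signals. Zap70, the Syk family kinase that docks on phosphorylated CD3 chains, was at 9.64, 9.51, 9.62 and 9.52 in WT and at 9.63, 9.63, 9.72 and 9.73 in IIKO chimeras. WT array 1 lay just above the 2 lower IIKO arrays, and the means differed by 0.10 ± 0.06 (SE; limma adjusted p = 0.377). Prkcq, the protein kinase C theta that leads to NF-κB, lay between 11.00 and 11.19 in WT and between 11.10 and 11.26 in IIKO chimeras (difference 0.09, adjusted p = 0.448). Fyn, a Src family kinase that acts beside LCK, had ranges of 11.18 to 11.38 and 11.11 to 11.38 (difference -0.06, adjusted p = 0.734). None of these groups was separate from the other.

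The Tec family kinases that activate phospholipase C gamma were the most variable members of this layer. Txk ran from 9.83 to 10.30 in WT and from 9.87 to 10.11 in IIKO chimeras, and its standard error of 0.10 was the largest of the 36 genes. Its difference was -0.01, with an interval of -0.24 to 0.22. Tec ran from 7.77 to 8.12 in WT and from 7.64 to 7.82 in IIKO chimeras, with WT arrays 2 and 4 above all others. Its difference of -0.17 ± 0.08 (SE) had a limma adjusted p of 0.332. Without WT array 2 it was -0.11, with an adjusted p of 0.531. Over the 5 measured kinases 0 passed, 2 differences were positive and 3 negative, and the median was -0.01.

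Adaptors and exchange factors link the receptor to RAS, RAC and the cytoskeleton. Sos1, the exchange factor that loads RAS with GTP after GRB2 brings it to LAT, was at 8.26, 8.49, 8.40 and 8.49 in WT and at 8.62, 8.59, 8.70 and 8.59 in IIKO chimeras. All 4 IIKO arrays lay above all 4 WT arrays, with WT array 1 the lowest of the 8. The means were 8.41 ± 0.11 and 8.63 ± 0.05 (SD, n = 4 arrays each), a difference of 0.22 ± 0.07 (SE), or 1.16-fold. The unadjusted limma p was 0.00788 and the adjusted p 0.181, with an interval of 0.07 to 0.36. Without WT array 1 the difference was 0.17 and the adjusted p 0.283. After a further quantile normalization the groups overlapped, with a difference of 0.18 and an adjusted p of 0.358.

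Grb2, the adaptor that carries SOS proteins, differed by 0.02, with ranges of 8.40 to 8.75 in WT and 8.57 to 8.70 in IIKO chimeras. Rasgrp1, the diacylglycerol-activated RAS exchange factor that is the other route to RAS in T cells, was among the steadiest members. It ran from 10.41 to 10.47 in WT and from 10.40 to 10.48 in IIKO chimeras, a difference of -0.02 with an interval of -0.13 to 0.09. Neither gene passed (limma adjusted p = 0.903 and 0.852).

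Lat, the membrane scaffold that ZAP-70 phosphorylates, was at 11.65, 11.67, 11.75 and 11.80 in WT and at 11.77, 11.78, 11.94 and 11.91 in IIKO chimeras. WT array 4 lay above the 2 lower IIKO arrays and the other 3 WT arrays below all of them. The difference was 0.13 ± 0.06 (SE; limma adjusted p = 0.318). Lcp2, which encodes the partner scaffold SLP-76, lay between 11.43 and 11.58 in WT and between 11.53 and 11.67 in IIKO chimeras, with a difference of 0.10 (adjusted p = 0.385). Grap2, which encodes the GADS adaptor that joins these scaffolds, differed by 0.07 (adjusted p = 0.671).

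Effectors docked on the scaffolds did not pass either. Plcg1, the phospholipase that makes the calcium and diacylglycerol signals, ran from 9.65 to 9.84 in WT and from 9.48 to 9.84 in IIKO chimeras (difference -0.06, limma adjusted p = 0.745). Vav1, the exchange factor for RAC, differed by 0.08 (adjusted p = 0.442). Nck1, an adaptor to the actin cytoskeleton, differed by -0.02, and Sh2d2a, which encodes an adaptor that binds LCK, by -0.10 (adjusted p = 0.896 and 0.623). Over the 10 genes of this layer 0 passed, 6 differences were positive and 4 negative, and the median was 0.04.

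Phosphatases and negative regulators set the threshold of the receptor. Ptprc, which encodes CD45, the phosphatase that removes the inhibitory phosphate from Src family kinases, lay between 11.96 and 12.06 in WT and between 12.05 and 12.07 in IIKO chimeras. Its difference of 0.03 ± 0.05 (SE) had the smallest standard error of the 36 genes and an interval of -0.08 to 0.14. One value summarises the whole probe set, so the splice forms of CD45 were not separated. Csk, the kinase that places the inhibitory phosphate, differed by 0.02, and Pag1, the membrane anchor of CSK, by -0.01. Neither the kinase nor its anchor passed (limma adjusted p = 0.893 and 0.977).

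Among the phosphatases that act on the activated receptor, Ptpn22, which dephosphorylates LCK and ZAP-70, ran from 10.81 to 11.01 in WT and from 10.84 to 11.22 in IIKO chimeras. IIKO array 4 was its highest array, and the difference was 0.05 (limma adjusted p = 0.807). Ptpn6, which encodes the SH2 domain phosphatase SHP-1, differed by -0.10 (adjusted p = 0.496), with WT array 1 highest at 10.11. Ubash3b, which encodes a phosphatase of ZAP-70, ran from 8.56 to 8.87 in WT and from 8.44 to 8.64 in IIKO chimeras. Its difference of -0.16 ± 0.08 (SE; adjusted p = 0.318) stood beside 0.04 for its paralog Ubash3a (adjusted p = 0.83). The difference between the paralogs was not tested.

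Sla and Sla2 encode Src-like adaptors that lower the number of receptors at the surface. Sla lay between 11.69 and 11.86 in WT and between 11.82 and 11.90 in IIKO chimeras, and its difference was 0.08 (limma adjusted p = 0.499). Sla2 differed by 0.04 (adjusted p = 0.855). Over the 9 genes of the layer 0 passed, 6 differences were positive and 3 negative, and the median was 0.03.

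Store-operated calcium entry and NFAT close the pathway. Stim1, the calcium sensor of the endoplasmic reticulum, lay between 8.71 and 8.79 in WT and between 8.69 and 9.0 in IIKO chimeras, a difference of 0.07 (limma adjusted p = 0.644). Orai1, the pore of the calcium channel that STIM1 opens, ran from 8.29 to 8.52 and from 8.29 to 8.58, a difference of -0.04 (adjusted p = 0.817). The groups overlapped in both genes, with IIKO array 1 highest for Stim1 and IIKO array 3 highest for Orai1.

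Nfatc1, the NFAT gene that NFAT itself induces through its first promoter, was at 8.85, 8.98, 9.0 and 9.13 in WT and at 9.0, 9.04, 9.28 and 9.24 in IIKO chimeras. The groups overlapped, with IIKO arrays 3 and 4 above every WT array, and the difference was 0.15 ± 0.08 (SE; limma adjusted p = 0.365, interval -0.03 to 0.33). The probe set does not separate the inducible short form from the others. Nfatc2, the main NFAT of resting T cells, was at 8.18, 8.31, 8.40 and 8.34 in WT and at 8.27, 8.35, 8.31 and 8.22 in IIKO chimeras. The IIKO values lay inside the WT range, and the difference was -0.02 with an interval of -0.16 to 0.12. Nfatc3, the third family member of T cells, was at 10.84, 10.90, 10.99 and 10.90 in WT and at 11.08, 11.01, 10.93 and 10.98 in IIKO chimeras. WT array 3 lay inside the IIKO range, and the difference was 0.09 ± 0.06 (SE; adjusted p = 0.413). Over the 5 measured genes of the layer 0 passed, 3 differences were positive and 2 negative, and the median was 0.07.

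Array by array, in the deposited values, the members did not move as a block. In WT arrays 1 to 4, 19, 15, 20 and 19 of the 36 genes lay above their own mean over the 8 arrays, and in IIKO arrays 1 to 4, 13, 19, 23 and 18 did. IIKO array 3 thus had the most members above their mean and IIKO array 1 the fewest. The median deviation ran from -0.03 in WT array 2 to 0.03 in IIKO array 3, with -0.03 in IIKO array 1 and 0.03 in WT array 3, so on this measure neither group stood apart. These counts by array were not repeated at other scalings, and the scaling matters here. With arrays centred on their medians, 26 of 36 differences were positive and their median was 0.070. After a further quantile normalization 16 were positive and the median was -0.019. The median SD of a member was 0.08 in WT and 0.07 in IIKO chimeras, against 0.11 and 0.10 for the brighter genes.

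**Figure D4:**
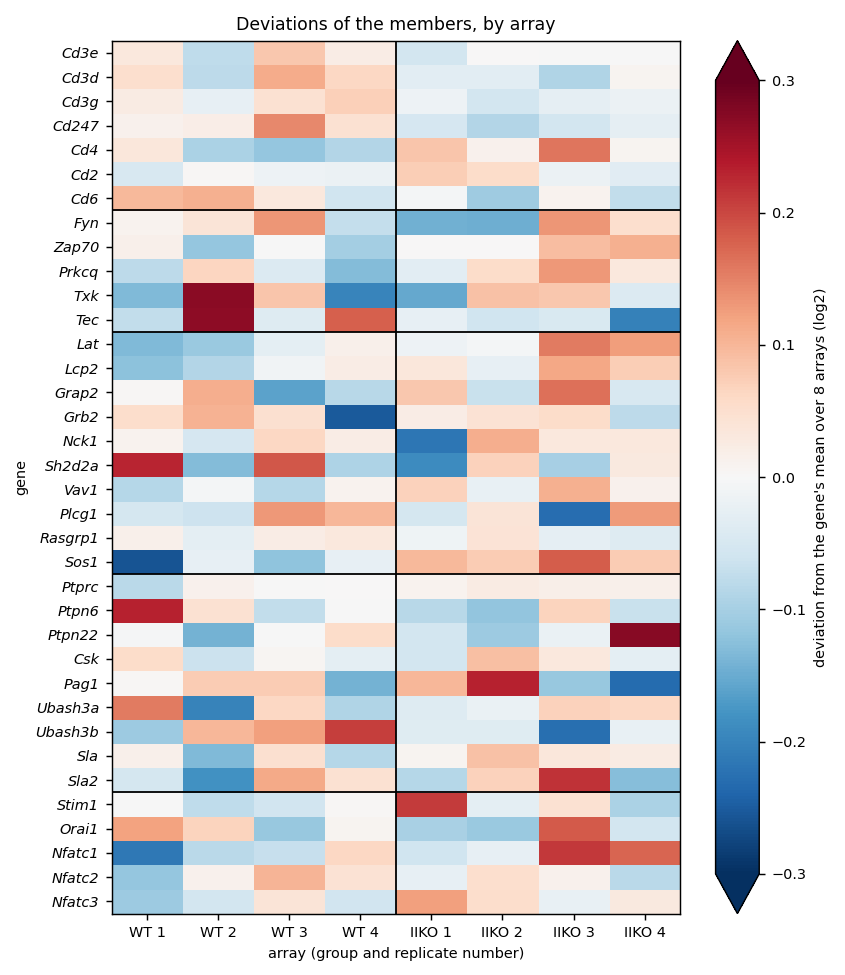
Deviation of each of the 36 members (rows, grouped by layer with black lines) from its own mean over the 8 arrays (columns), in log2, with colours saturating at 0.3 on either side. In these deposited values, Sos1 and Cd247 are the 2 rows in which every array left of the vertical line lies on the other side of every array right of it.

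In their place on the chromosomes, 4 members lay close to genes that passed the test, with a gene counted as close if at most 20 tested genes away. The share of all genes lying as close was not computed, so the count of 4 cannot be called high or low. Chromosome 7 held 17 of the 57 genes that passed, and 5 members lie on chromosomes 7 and 17. Lat was 9 tested genes from Cln3 (-1.0), 10 from Apobr (-0.56) and 18 from Gdpd3 (6.11), all on chromosome 7. Ubash3a was 8 from Dnah8 (1.42) and 9 from Glo1 (0.83) on chromosome 17, and Stim1 was 15 from Trim68 (0.57) on chromosome 7. Nfatc1 was 8 from Setbp1 (0.60). The differences of these 4 members, 0.13, 0.04, 0.07 and 0.15, did not pass, while limma adjusted p values of the named neighbours ran from 5.26e-08 for Gdpd3 to 0.0315 for Setbp1. Sos1 also lies on chromosome 17, which held 18 of the 57 genes that passed, and its nearest such gene, Ehd3, was 38 tested genes away. Whether the donors differ in sequence near these genes was not tested.

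The rest of the pathway was read from a second list of 47 genes, 42 of them measured. Of the 42, 0 passed at a limma adjusted p under 0.05. Before adjustment, 5 of the 42 were higher at a limma p under 0.05 (5.27% of all genes, 8.95% of the brighter genes) and 1 was lower (12% and 7.42%). Separate groups were found for 3, all upward (2.83% of all genes, 4.95% of the brighter genes), and 39 had an interval within 0.5 of 0 (94.1% of all genes). Their median difference was 0.03. The 3 with the smallest p were Themis, Sos2 and Orai2.

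Themis, which encodes a protein that binds GRB2 and tunes receptor signals in developing T cells, was at 8.78, 9.07, 8.87 and 8.70 in WT and at 9.45, 9.45, 9.09 and 9.01 in IIKO chimeras. WT array 2 lay above the lowest IIKO array, and the difference was 0.39 ± 0.12 (SE; limma adjusted p = 0.179). Sos2, the paralog of Sos1, was at 8.67, 8.79, 8.75 and 8.69 in WT and at 8.83, 8.90, 8.90 and 8.99 in IIKO chimeras. Its groups did not overlap in the deposited values, and its difference was 0.18 ± 0.06 (SE; adjusted p = 0.189).

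Orai2, a paralog of the ORAI1 channel, had 2 probe sets, of which the brighter was used and the other is not shown. Orai2 had the widest spread of these genes. It was at 8.84, 7.78, 7.70 and 8.86 in WT and at 9.14, 9.83, 8.74 and 9.26 in IIKO chimeras. WT arrays 1 and 4 lay about 1 log2 unit above WT arrays 2 and 3, and above the lowest IIKO array. The difference was 0.95 ± 0.30 (SE; adjusted p = 0.194), with an interval of 0.27 to 1.62, beside the -0.04 of Orai1. The difference between the 2 channel genes was not tested.

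**Figure D5:**
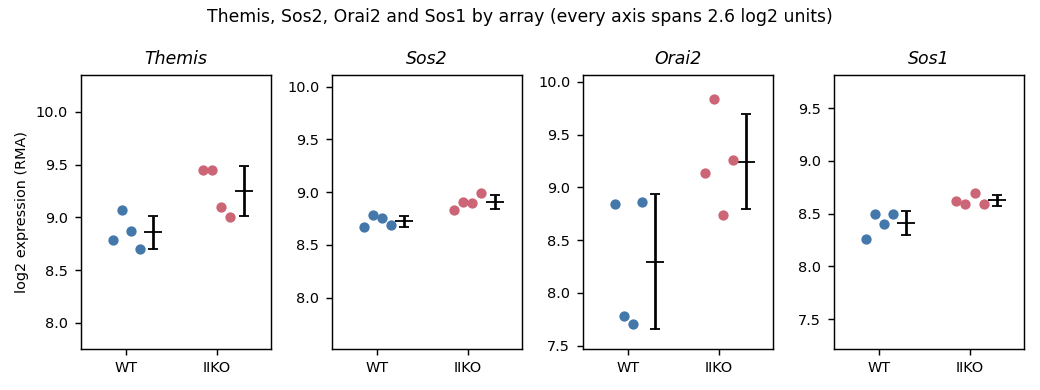
Log2 expression (vertical axes, all of the same span) of Themis, Sos2, Orai2 and Sos1 in the 4 WT and 4 IIKO arrays, with points for arrays and bars for the mean and SD. The groups do not overlap in Sos2 and Sos1 in the deposited values; Orai2 runs from 7.70 to 8.86 in WT and from 8.74 to 9.83 in IIKO chimeras.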

How the data were processed

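Expression was measured on 8 arrays, 4 per group by the titles of the samples. The authors deposited log2 values, 1 for each probe set. The submitters' processing notes name affy and RMA without versions or settings. Array medians over all probe sets lay between 6.96 and 7.03. Over the 19937 genes of the fit, medians lay between 7.109 and 7.139 in WT and between 7.044 and 7.102 in IIKO arrays. On this measure the groups did not overlap. Of 34760 probe sets, 21640 had 1 gene symbol in the platform annotation. The brightest probe set of each gene was kept, which left 19937 genes with no filter on signal.

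The comparison used lmFit and eBayes of limma 3.58.1 under R 4.3.3 (no covariate, two-sided), with Benjamini-Hochberg adjustment over all genes. The fit was tested on simulated data. The labels speak of biological replicates but name no separate mice, so p-values cover only the spread among these samples, which may be technical. No array repeated another, since the SD of the difference between any pair was at least 0.185. The main fit did not pair same-numbered arrays. Gene order came from RefSeq (GRCm38.p6), matched by gene identifier for 19855 genes.

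The members and lists were chosen with earlier results of these data known. All measured members were named (with every array for the CD3 chains, Cd4, Zap70, Lat, the Nfatc genes and those with separate groups or an unadjusted p under 0.05), with the 3 other pathway genes of smallest p, Foxp3 and Il2ra. Ctla4, Ikzf2, Cd1d1, Siglech, Cd8a, Klrb1c, Klrd1, Eomes, Tyrobp, Adgre1, Xcr1, Rag1, Rag2, Dntt and Ptcra were named after their values were seen. The fit was repeated with each array left out, with quantile normalization, median centring, brighter genes only, array weights, trend and robust variance, averaged probe sets, the replicate number as a block, and a threshold of 0.01. Figures used Python 3.11.15 and matplotlib 3.10.9.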

Additional observations from a re-analysis of the deposited data

Results flagged for a closer look

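Among the 72 groups of 4 arrays (36 members in 2 groups), 4 held an array set apart from the other 3 by Dixon's ratio, and chance sets apart about 1 group in 20. In IIKO array 1, Cd3e was at 11.83, with the other IIKO arrays at 11.89. Grb2 in WT array 4 was at 8.40, against 8.70 to 8.75 in the others. Ptprc in WT array 1 was at 11.96, against 12.04 to 12.06. Ubash3b in IIKO array 3 was at 8.44, against 8.63 to 8.64. Each of the 4 was the lowest array of its group, and they came from 4 different arrays.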

How the results depend on the processing

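Under the 16 alternatives 0 members passed the adjusted threshold; the lowest adjusted p of any member was 0.153, that of Sos1 with arrays centred on their medians. All 36 intervals stayed within 0.5 of 0 in every refit, and 0 of the other pathway genes passed. The threshold of 0.01 reused the main fit, so its 0 was fixed by the 0 at 0.05. The counts at an unadjusted p under 0.05 did move. Members higher numbered 9 with centred arrays, 3 with the replicate block, 3 with trend and robust variance and 2 with probe sets of a gene averaged, against 1. Each member had 1 probe set, so averaging left the members' values unchanged. Their p moved only through the moderation of the spread over all genes. Members lower numbered 3 after a further quantile normalization, against 0. Members with separate groups numbered 6 with centring, Sos1 but not Cd247 among them, against 2. They also numbered 2 after quantile normalization, Cd247 and Cd6, without Sos1. Leaving out 1 array gave 1 to 3 higher, 0 to 2 lower and 2 to 7 separate. The largest of these, 7, came without WT array 2, and the 3 higher came without WT array 4 or IIKO array 1; 2 lower came without WT array 1. The members' median of 0.02 became -0.019 after quantile normalization and 0.070 with centring, the median over all genes moving from -0.04 to -0.0069 and 0.012.

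Small differences changed sign. After quantile normalization these were Grb2 (-0.022), Csk (-0.020), Pag1 (0.035), Ubash3a (-0.018) and Sla2 (-0.017). With centring they were Cd3e (0.021), Txk (0.038), Nck1 (0.028), Rasgrp1 (0.030), Pag1 (0.043), Orai1 (0.010) and Nfatc2 (0.029), and with array weights Pag1 (0.0029). With 1 array left out, ranges crossed 0 for Csk (-0.0098 to 0.038), Grb2 (-0.058 to 0.061), Nck1 (-0.062 to 0.047), Nfatc2 (-0.064 to 0.0087), Pag1 (-0.085 to 0.069), Plcg1 (-0.11 to 0.0095), Ptpn22 (-0.038 to 0.089), Sla2 (-0.030 to 0.085), Txk (-0.080 to 0.076) and Ubash3a (-0.024 to 0.095). The cause was not tested.

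Whether arrays with the same replicate number were handled together is not known, and the values cannot decide it. The deviations of same-numbered arrays correlated at 0.045, -0.015, -0.068 and 0.22 over genes, and 1 of 4 WT arrays correlated best with its own number. Array medians over all probe sets, however, rose from replicate 1 to 4 in both groups. They rose from 6.967 to 7.031 in WT and from 6.960 to 7.002 in IIKO arrays. With the replicate block 31 genes passed in all, against 57; the range with 1 array left out was 32 to 50. Signal over background was not examined, since only summarised values were used.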
